A study of Mus musculus with 2 samples.

Results

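The genes described here are named for the proteins of the cytosolic ribosome, and were read in mouse lung epithelial cells. A gene was taken as a member when a non-control probe on the array carried a RefSeq accession whose symbol was Rpl or Rps with a number and an optional letter, or Rpsa, Rplp0, Rplp1 or Rplp2. S6 kinases and pseudogene names were left out. This gave 82 genes of 20660 named genes, read by 171 probes: 32 genes of the small subunit and 50 of the large subunit. The arrays compared lung epithelial cells labelled Mob1DKO with cells labelled wild type (WT), both of strain C57BL/6 at an age of 10 weeks. Mob1DKO is understood here as loss of Mob1a and Mob1b, which encode adaptors of the LATS kinases in the Hippo pathway. The labels give neither the alleles, nor the Cre driver or inducing agent, nor sex, nor how many mice were pooled. Each group held 1 array, so no difference below has a replicate check or a p-value; precision is limited by having a single array on each side.

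The cytosolic ribosome joins a small subunit, which reads the mRNA, with a large subunit, which forms the peptide bond. Its proteins are needed in near-equal amounts, and their mRNAs are among the most abundant of a growing cell. Most of these mRNAs belong to the 5′ TOP class, which begins with a C followed by a run of pyrimidines and is translated under control of mTORC1. Many ribosomal protein genes also left processed pseudogenes scattered over the genome.

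A level below is the log2 of the scanner's processed intensity over the 75th percentile of its array, and a difference is the Mob1DKO level minus the WT level. Of the 55681 non-control probes, 58.6% (Mob1DKO) and 53.1% (WT) were well above background, and no spot was saturated. The 75th percentile itself was 291 intensity units for Mob1DKO and 155 for WT. The Mob1b probes differed by -2.70 and -2.001, and the single Mob1a probe by 0.07. The position of the Mob1a probe relative to any deleted part is unknown here, so it checks nothing. The 9 epithelial markers were well above background on both arrays, with a summed signal of 4551 times the 75th percentile in Mob1DKO and 7101 in WT. That sum is carried by Sftpc and Scgb1a1; the median difference of the 9 was -0.01, with 4 higher on the Mob1DKO array. Of 6 genes listed as leukocyte markers, Lyz2 and Coro1a were well above background, while Ptprc, Cd52, Laptm5 and Cd53 were not. Their summed signal of 243 against 275 was carried by Lyz2 (7.92 against 8.10), with Coro1a below the 75th percentile on both arrays. Which cells the Lyz2 signal came from was not tested, so this sum is no measure of leukocyte content. Endothelial markers summed to 26.3 against 38.7, with Kdr (-0.60) lower, Egfl7 (0.53) and Pecam1 (0.12) higher and Cdh5 and Cldn5 not well above background, and the 5 mesenchymal markers to 93.3 on each array. Red cell genes summed to 1.31 against 14.0, and 4 of 5 were 2-fold or more lower on the Mob1DKO array. The part of cell makeup in the differences below was not tested.

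The starts of these genes were searched for the pyrimidine run of the TOP class. RefSeq windows (build GRCm38.p6) were at hand for 61 of the 82 members, on 17 chromosomes. A C at the annotated start followed by at least 4 further pyrimidines, read on the gene's strand, stood in 14 of 73 member windows (19.2%) and in 2.51% of all 32851 windows of the same length. The windows below run from 40 bases before the start to 20 bases from it, and capitals mark the pyrimidine run, or the first base alone where a run of that length was missing. Rplp2 and Rps15a are shown as members with large differences, Rps6 as the substrate of the S6 kinases, Rpl35 and Rps10 for their long runs, and Rps2, Rplp0 and Rpl10 as prominent members without such a run at the annotated start.
Rplp2, chr7:141447611-141447670, plus strand: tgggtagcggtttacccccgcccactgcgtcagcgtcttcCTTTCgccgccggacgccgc
Rps15a, chr7:118116128-118116187, minus strand: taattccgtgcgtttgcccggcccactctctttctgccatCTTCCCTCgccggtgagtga
Rps6, chr4:86857348-86857407, minus strand: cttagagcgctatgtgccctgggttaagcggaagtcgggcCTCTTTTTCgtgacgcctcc
Rpl35, chr2:39005112-39005171, minus strand: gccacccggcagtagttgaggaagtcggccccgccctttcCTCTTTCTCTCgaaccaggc
Rps10, chr17:27635225-27635284, minus strand: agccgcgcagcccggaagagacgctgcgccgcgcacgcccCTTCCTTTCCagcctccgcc
Rps2, chr17:24720023-24720082, plus strand: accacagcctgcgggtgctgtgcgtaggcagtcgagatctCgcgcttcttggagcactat
Rplp0, chr5:115559427-115559486, plus strand: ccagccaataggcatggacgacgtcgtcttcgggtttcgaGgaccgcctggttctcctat
Rpl10, chrX:74270776-74270835, plus strand: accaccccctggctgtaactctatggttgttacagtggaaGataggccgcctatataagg
An annotated start can lie some bases from the one used in a tissue, so a window without a run says only that these letters are not at this position. The 14 members with a run had a median difference of -0.14 (range -0.46 to 0.01), and the 44 others with a window and a measured difference had -0.20 (range -0.81 to 0.03). The ranges overlapped.

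Ribosomal protein genes were slightly and broadly lower on the Mob1DKO array. Of the 82 genes, 80 passed the background filter on 1 array or both, 79 of them on both, and 76 of the 79 had a difference below 0 (59 with quantile normalization, 58 with loess on brightness). The median difference was -0.16 (SD over the 79 genes 0.13, quartiles -0.25 and -0.10), against 0.01 (SD 0.41) over all 13866 named genes measured on both arrays. A difference below 0 was seen in 48.2% of all these genes and in 54.4% of the 682 other genes with a mean level of 5 or more, the range that holds nearly all members. None of the 80 passed 2-fold in either direction. Over all 15099 named genes measured on at least 1 array, 3.79% were 2-fold or more higher and 2.91% 2-fold or more lower. The members stood together in a narrow band rather than holding genes with large changes. Those 2-fold shares are not matched for brightness: the median level was 0.73 over all named genes measured on both arrays and 7.38 over the members. The share past 2-fold among other genes of like brightness was not counted.

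The differences of single genes were set against the error of single spots. Probes printed 10 times on each array gave an SD of 0.0886 for the difference of 1 spot against 1 spot above the 75th percentile (169 probes). By that measure 19 of the 79 genes lay within 1 SD of 0, and 36 lay beyond 2 SD, of which 36 were lower on the Mob1DKO array and 0 higher. Only 13 such probes had a mean level of 5 or more, and they gave an SD of 0.0608. By that smaller SD, 13 of the 78 members in this range lay within 1 SD and 55 beyond 2 SD, again 55 lower and 0 higher. This error covers spots within an array pair and leaves out preparation, labelling and the animals. The counts are also distances from a 0 set by scaling on the 75th percentile. With quantile normalization the member median was -0.0664 and with loess on brightness -0.0397, and the counts were not repeated there. The direction also depended on background correction: with limma's normexp correction of the median spot signal and an offset of 50, the median difference of the members was 0.04 and 29 of the 79 were below 0. That correction moved probes with a level of 5 or more by a median of 0.19 relative to the scanner's processed signal, and the same correction without an offset moved them by 0.04 and gave a member median of -0.11. Set against other genes of like brightness (mean level 5 to 10) in place of all genes, the member median differed from theirs by -0.15 with the scanner's signal and by -0.13 with normexp and its offset.

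**Figure D1:**
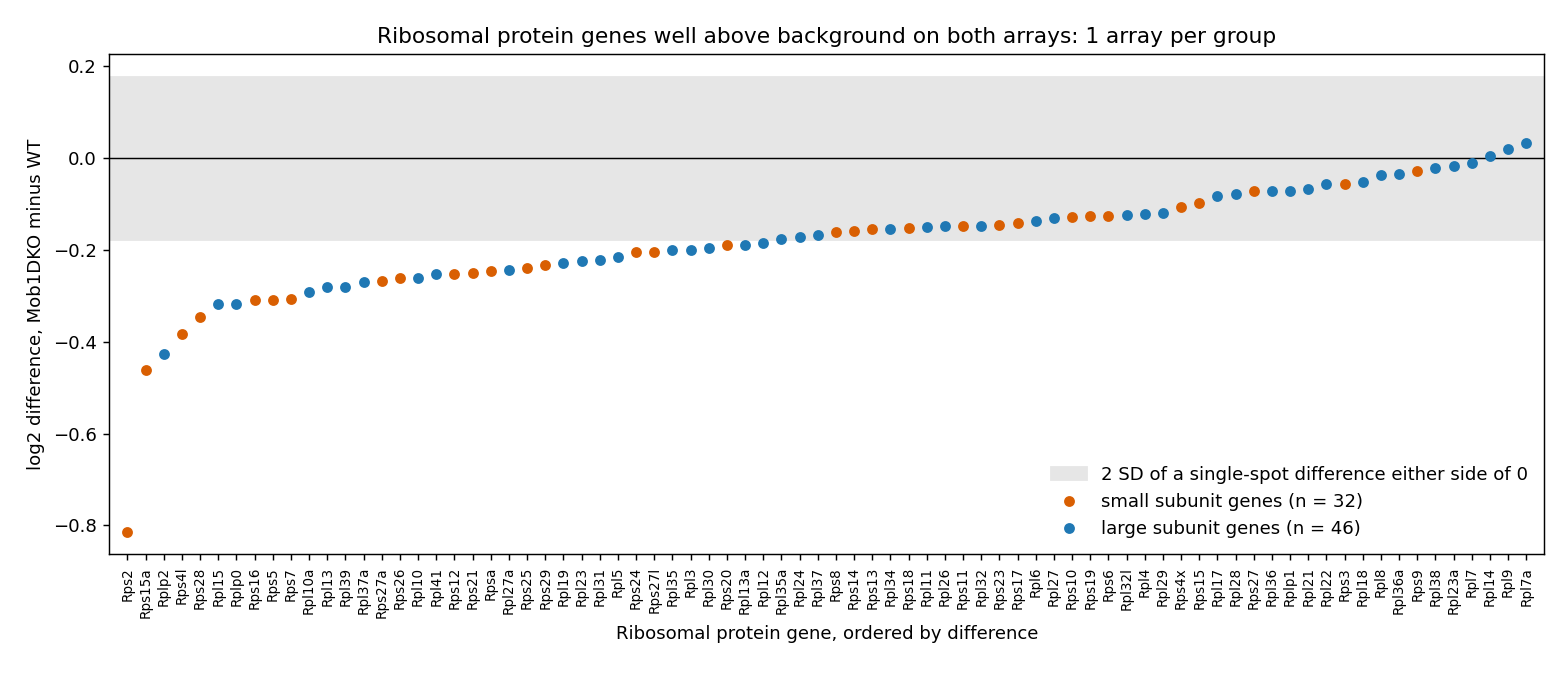
Difference (Mob1DKO minus WT, log2) of ribosomal protein genes well above background on both arrays, ordered by value and coloured by subunit, with 1 of the 79 not drawn; the grey band spans 2 SD of a single-spot difference (SD 0.0886) either side of 0. The points run from -0.81 for Rps2 to 0.03 for Rpl7a, those above 0 are Rpl7a, Rpl9 and Rpl14, and 36 lie below the band.

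In the small subunit, each of the 32 genes had a difference below 0, with a median of -0.20 and a range from -0.81 to -0.03. The most negative was Rps2, which encodes a protein near the mRNA entry channel, with a level of 6.36 in Mob1DKO and 7.17 in WT (1.76-fold lower). Its other probe read 6.63 and 6.36, a difference of 0.28 in the opposite direction. Rps2 was the only gene among the members whose probes well above background on both arrays differed from each other by 1 or more, and it has 12 named pseudogenes, so its value is uncertain. Rps15a read 6.46 against 6.93 (-0.46) with its brightest probe and -0.13 with a second. Both of these probes were thus lower on the Mob1DKO array. Another, dim Rps15a probe passed the filter on the Mob1DKO array alone, at least 1.44-fold higher there. The filter favours that direction, so this probe is no independent reading. Its bound (0.52 log2) is within 2 SD of a single-spot difference below the 75th percentile (SD 0.36).

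The other small subunit genes lay closer together. Rps28 read 8.05 against 8.39, a difference of -0.35. Rpsa, which encodes a ribosomal protein also known as the laminin receptor precursor, read 8.21 against 8.46 (-0.25), and Rps14, a protein of the platform, 9.11 against 9.27 (-0.16). Rps6, the protein phosphorylated by the S6 kinases, read 7.14 against 7.27 (-0.13), which is within 2 SD of a single-spot difference by the larger SD and just beyond 2 SD (0.122) by the smaller. Rps19, the gene most often mutated in Diamond-Blackfan anaemia, had the same difference (-0.13) at 6.58 against 6.71. Rps27a, which encodes ubiquitin fused to a ribosomal protein, read 7.97 against 8.24 (-0.27). Its second probe gave -0.18. Another, dim one passed the filter on the Mob1DKO array alone, at least 1.18-fold higher there, a direction that the filter favours. That bound (0.23 log2) is within 1 SD of a single-spot difference below the 75th percentile (SD 0.36).

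In the large subunit, 48 of 50 genes passed the background filter, 47 of them on both arrays. Of the 47, 44 had a difference below 0, the median was -0.15 and the range ran from -0.43 to 0.03. The ranges of the subunits overlapped, and whether the subunits differ was not tested. The 3 genes above 0 were Rpl7a (7.40 against 7.36, difference 0.03), Rpl9 (8.58 against 8.56, 0.02) and Rpl14 (7.74 against 7.74, 0.01). Rpl7 and Rpl23a had differences of -0.01 and -0.02. With these brightest probes the 5 genes lay within 1 SD of a single-spot difference by either SD. Other probes of some of them did not. The second Rpl9 probe, at a mean level of 7.51, gave -0.16. The 4 Rpl7 probes ran from -0.15 to 0.02 and the 4 Rpl7a probes from -0.11 to 0.04.

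The stalk genes, whose products recruit translation factors to the large subunit, split. Rplp2, one of the acidic stalk proteins, read 7.80 against 8.22, a difference of -0.43. Rplp0, the base of the stalk and a common reference gene for RT-qPCR, read 8.71 against 9.03 (-0.32). The other Rplp0 probes gave -0.15 and -0.19, near the family median. Rplp1, the partner of Rplp2 in the stalk dimers, read 7.69 against 7.76 (-0.07), within 2 SD of a single-spot difference by either SD. The stalk therefore held both one of the most negative members and one near 0.

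Rpl5 and Rpl11 form the 5S particle with 5S rRNA, which binds MDM2 when ribosome assembly is disturbed. Rpl5 read 6.05 against 6.26 (-0.22) and Rpl11 read 8.25 against 8.40 (-0.15). The 8 genes around the polypeptide exit tunnel were each below 0, with a median of -0.17 and a range from -0.28 for Rpl39 to -0.02 for Rpl23a. The 17 members linked to Diamond-Blackfan anaemia, a failure of red cell production caused by loss of 1 copy of a ribosomal protein gene, were each below 0 as well, with a median of -0.20. These counts repeat the share of the whole family (76 of 79) and set no role apart. Rpl15, one of the 17, was the sixth most negative member at 6.79 against 7.11 (-0.32), while its dim probe gave 0.18.

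The 6 brightest members were each below 0, like most of the family. Rpl10, which completes the 60S subunit late in its maturation, read 9.19 against 9.45 (-0.26), and Rps14 and Rplp0 followed in brightness. Rpl37a read 8.73 against 9.001 (-0.27), Rpl41 8.68 against 8.94 (-0.25) and Rps12 8.65 against 8.90 (-0.25). These genes differed by -0.32 to -0.16, and Rpl9, also among the brighter members, is one of the 3 above 0. The second probe of Rpl9 gave -0.16. Brightness is a property of the probe as well as of the mRNA, so this order says nothing on which protein's mRNA was more abundant.

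Rpl10, Rpl36a, Rpl39 and Rps4x lie on the X chromosome. Rpl39 had a difference of -0.28 (6.56 against 6.84), Rps4x of -0.11 (5.90 against 6.01) and Rpl36a of -0.04 (5.68 against 5.72). With Rpl10, all 4 were below 0, and their median of -0.18 was near that of the family. Xist, the RNA made from the inactive X, differed by -2.29 and -2.22 on its 2 probes. A difference in sex and the genotype cannot be told apart with these arrays, and its part in the X-linked values was not tested.

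Tissue-restricted paralogs were the dim end of the family. Rpl3l, a form of Rpl3 found in heart and skeletal muscle, and Rpl39l, a form of Rpl39 found in male germ cells, did not pass the background filter on either array, while their partners read 6.89 against 7.09 (Rpl3, -0.20) and 6.56 against 6.84 (Rpl39). Rpl10l, a germ cell form of Rpl10, passed it on the Mob1DKO array alone (-2.82 against -3.54) and at least 1.55-fold higher there with 1 of its 2 probes, the other probe failing it on both. The bound compares its Mob1DKO level with the lowest WT level that counted as well above background. Passing the filter on that array alone favours this direction. The bound (0.63 log2) is within 2 SD of a single-spot difference below the 75th percentile (SD 0.36). Rps27l, a p53-responsive form of Rps27, read 5.17 against 5.38 (-0.20), beside -0.07 for Rps27 (8.42 against 8.49). Rps4l read 0.93 against 1.32 (-0.38), the only dim member measured on both arrays and the 1 farthest from the rest in brightness. Its RefSeq record is a non-coding RNA, and it is a member by name. Paralogs and partners share sequence, so these readings are uncertain.

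**Figure D2:**
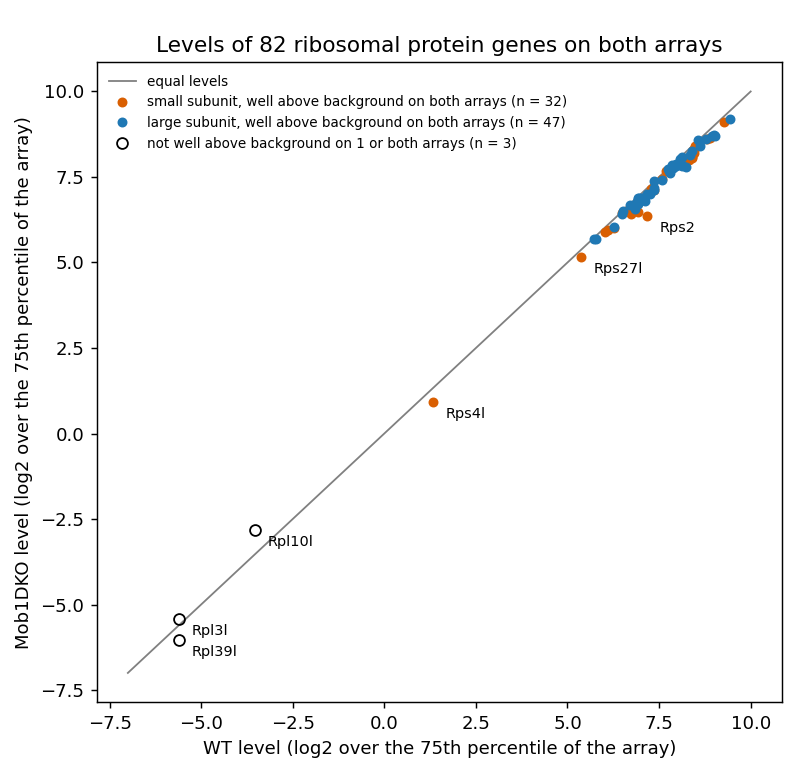
Level (log2 over the 75th percentile of the array) of the 82 ribosomal protein genes on the WT array (horizontal) and the Mob1DKO array (vertical); open circles are the 3 genes not well above background on 1 or both arrays, and the line marks equal levels. All but Rps4l of the 79 measured genes lie above a level of 5 close to the line, and Rps2 stands farthest below it.

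Brighter probes tended to be lower on the Mob1DKO array across the whole chip at the top of the range, and the members were read beside that trend. Other named genes had a median difference of -0.01 at a mean level of 5 to 6 (363 genes) and 0.01 at 6 to 7 (155 genes). Their median was then -0.01 at 7 to 8 (81 genes), -0.07 at 8 to 9 (42 genes), -0.21 at 9 to 10 (21 genes) and -0.59 at 10 to 11 (17 genes). The members gave -0.09 at 5 to 6 (4 genes), -0.14 at 6 to 7 (26 genes), -0.15 at 7 to 8 (23 genes), -0.22 at 8 to 9 (23 genes) and -0.21 at 9 to 10 (2 genes). The member median minus that of other genes was -0.15 at 6 to 7, -0.14 at 7 to 8, -0.15 at 8 to 9 and 0.00 at 9 to 10, so the members were lower than other genes of like brightness over the range where most of them lie. The 20 brightest named genes held 0 members, the 50 brightest 4, the 100 brightest 21 and the 200 brightest 47. Sftpc and Scgb1a1, secretory epithelial genes among the very brightest, differed by -0.78 and -0.84.

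Within single bins the members were also more uniform than other genes. At 6 to 7, 26 of 26 members were below 0 against 74 of 155 other genes, with SDs of 0.17 and 0.36. At 7 to 8 the counts were 21 of 23 and 42 of 81, with SDs of 0.09 and 0.41. At 8 to 9 they were 22 of 23 and 27 of 42, with SDs of 0.11 and 0.25.

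Within the family the trend on brightness was weak. A straight line through all 79 genes had a slope of 0.0042 per log2 unit (Pearson r 0.04 over genes of the same 2 arrays), and this sign rested on Rps4l: over the 78 members with a mean level of 5 to 10 the slope was -0.0141. Over 662 other genes in that range it was -0.0243. The large subunit genes had a slope of -0.0346 (n = 47) and the small subunit genes of 0.0167 (n = 32), the latter again with Rps4l at its dim end. Over the 164 member probes well above background on both arrays, of which 146 were below 0, it was -0.0124. The line through the members at 5 to 10 stood at -0.14 at a level of 5 and -0.20 at 9. That through the 662 other genes stood at 0.01 and -0.09. Both ends of the member line rest on few members, with 4 genes at 5 to 6 and 2 at 9 to 10. At 9 to 10 the medians of members and other genes were both -0.21. The distance from 0 also depended on processing, with a member median of -0.0397 under loess on brightness.

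**Figure D3:**
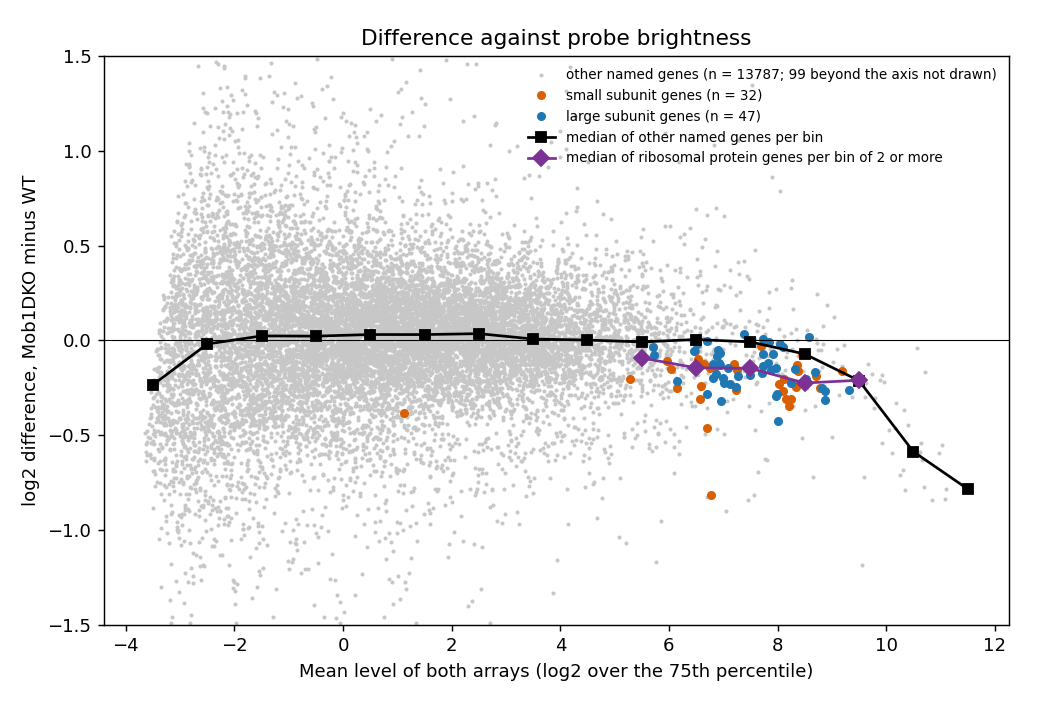
Difference (Mob1DKO minus WT, log2) against the mean level of both arrays for other named genes (grey points), small and large subunit genes (coloured points), and the medians per bin of 1 log2 unit (squares, other genes; diamonds, ribosomal protein genes). Between levels of 6 and 9 the diamonds lie below the squares, at -0.14 to -0.22, and at 9 to 10 both medians are -0.21.

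Probes of different brightness for the same gene gave a reading on the trend with the gene held fixed. Of the 82 genes, 52 had several probes, and in 50 at least 2 were well above background on both arrays. The brightest probe was lower than the dimmest in 32 of the 50. In the 18 genes whose probes lay 2 or more log2 units apart, the bright probes had a median level of 7.11 and a median difference of -0.17, and the dim ones a level of 1.25 and a difference of -0.03. The bright probe was the lower in 13 of these 18. In the 32 genes with probes closer than that, the medians were -0.15 and -0.17. Of 172 other genes with so wide a gap and a bright probe at 5 or more, the brighter was lower in 89, with medians of -0.01 and 0.00.

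Single genes show both directions. For Rpsa the bright probe gave -0.25 and a probe at a level of -2.98 gave 0.11. For Rpl15 the values were -0.32 and 0.18, and for Rpl14 0.01 and 0.28. Rps3 ran the other way with -0.06 for the bright probe and -0.56 for the dim one, and so did Rps25 with -0.24 and -0.59. Of the 18 dim probes, 6 lay below the 75th percentile, those of Rpsa and Rps25 among them, where the SD of a single-spot difference was 0.36. A dim probe of Rpl23 was printed on 10 spots per array and read 2.45 to 2.62 (SD 0.05) in Mob1DKO and 2.42 to 2.69 (SD 0.09) in WT, a difference of 0.01 with ranges that overlapped. The bright probe of Rpl23, on 1 spot, gave -0.22.

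**Figure D4:**
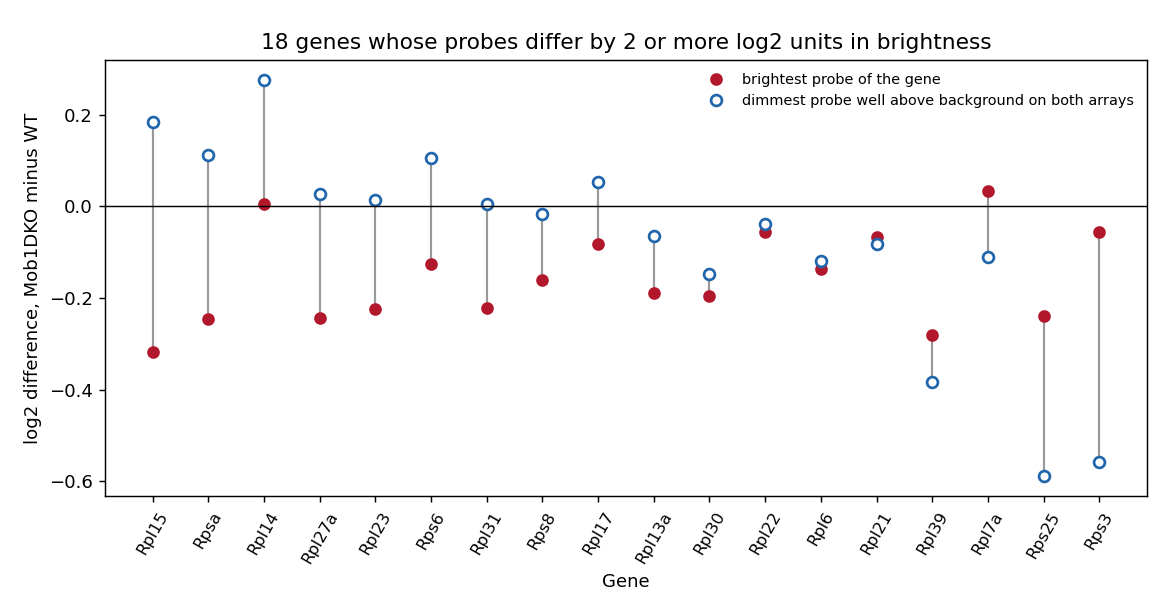
Difference (Mob1DKO minus WT, log2) of the brightest probe (filled) and the dimmest probe well above background on both arrays (open) for the 18 ribosomal protein genes whose probes lie 2 or more log2 units apart in level. Genes are ordered by the difference of the bright probe minus that of the dim probe. The filled point is the lower in 13 genes, and Rps25 and Rps3 at the right run the other way.

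Ribosome components outside the naming rule were also near or below 0. Fau, which encodes a ubiquitin-like protein fused to RPS30, differed by -0.16, and Rack1, a scaffold on the small subunit, by -0.08. Rps3a1, the mouse gene for the small subunit protein eS1, read 6.43 against 6.37 (0.05), so it sat above 0 unlike the 32 members of its subunit. Of the paralogs with other names, Rpl36al differed by -0.12, Rpl22l1 by 0.18 and Rpl7l1 by 0.29.

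Other lists of translation genes had medians nearer to 0 or above it. Of 18 other mRNAs of the 5′ TOP class, 10 were below 0 and 8 above, with a median of -0.03 and an SD of 0.13, the same spread as the ribosomal protein genes. Tpt1, a very bright member of that class, differed by -0.30. Fau and Rack1 are counted in this list too. The class was thus split about 0. Of 78 mitochondrial ribosomal protein genes, 77 were measured on both arrays, 54 of them below 0, with a median of -0.10 (SD 0.19, range -0.71 to 0.60) at a much lower median level (2.26) than the cytosolic ones (7.38). The brightest of them, Mrpl52, Mrpl33 and Mrpl14 of the mitochondrial large subunit, differed by -0.21, 0.04 and 0.14.

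Among factors that build or use the ribosome, 18 of 27 biogenesis genes were above 0, with a median of 0.12. Over all named genes measured on both arrays, 51.8% were above 0. Npm1, a nucleolar chaperone, differed by 0.25, Ncl, nucleolin, by 0.22 and Ubtf, a factor of rRNA transcription, by -0.49. Of 43 initiation factor genes measured on both arrays 24 were above 0, with a median of 0.03, and the bright ones Eif1, Eif4a1 and Eif3c differed by -0.15, -0.00 and -0.19. Eif2s3y, a Y-linked gene, was the exception in that list, detected on the Mob1DKO array alone and at least 29.6-fold higher there. For this gene too, a difference in sex and the genotype cannot be told apart. Of 9 S6 kinase genes measured on both arrays 5 were above 0, and the brightest of them were Rps6kb1, the S6 kinase downstream of mTORC1 (0.51), Rps6ka1 (-0.27) and Rps6ka4 (0.09). Apart from Eif2s3y, 0 genes of these lists passed 2-fold.

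**Figure D5:**
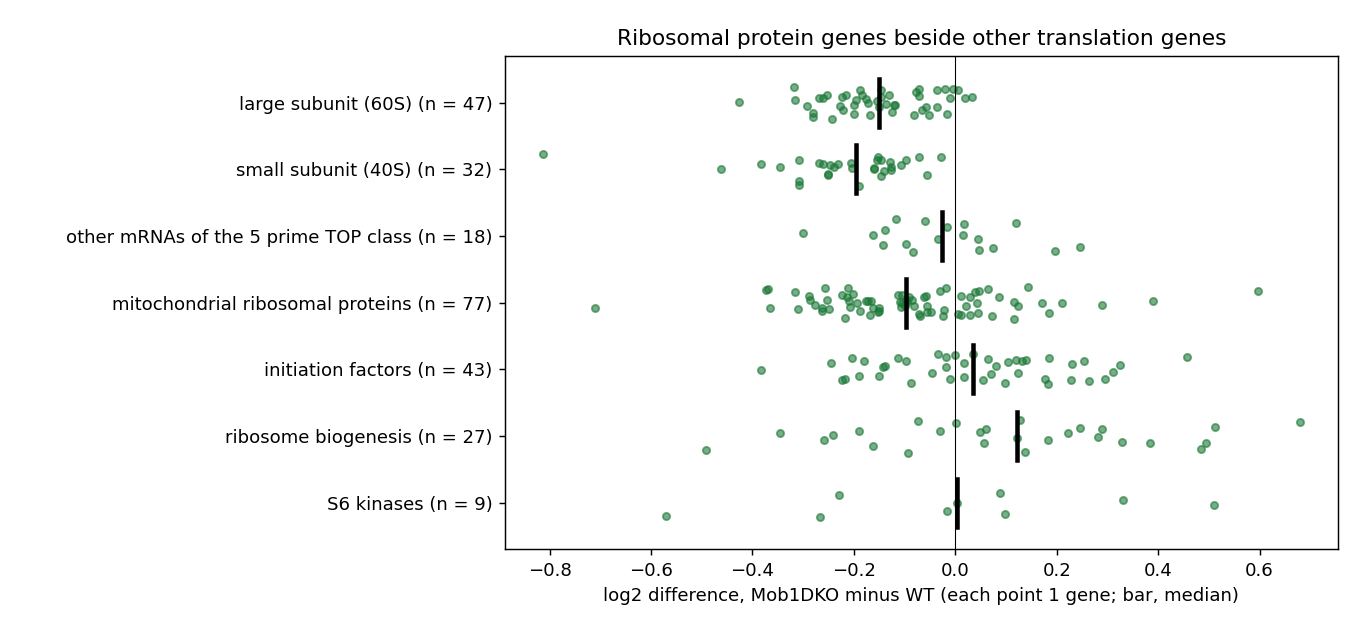
Difference (Mob1DKO minus WT, log2) of each gene well above background on both arrays in 7 lists, with the median as a bar; vertical jitter has no meaning. The subunit genes lie at medians of -0.15 and -0.20, mitochondrial ribosomal proteins at -0.10, TOP-class mRNAs at -0.03 and biogenesis genes at 0.12.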

How the data were processed

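Cy3-labelled cRNA from total RNA was hybridised to 1-colour Agilent mouse arrays, 1 per group. The deposited scanner files hold an intensity per spot, with background subtracted by Agilent Feature Extraction 10.7.1.1 on an mm9 grid, per the file headers. Version 9.5.1.1 stands in the submitters' processing notes instead. The deposited value table of the series, used as an alternative, holds intensity values and gave the same member medians as quantile normalization. Spots of a probe were averaged, each array was divided by its 75th percentile and log2 was taken (Python 3.11.15, pandas 2.3.3, numpy 2.4.6). Of the probes, 27235 were named through RefSeq accessions, for 20660 genes. A gene was read with its brightest probe. Normexp, with the median spot signal, quantile and loess used limma 3.58.1 in R 4.3.3. With 1 array per group no test was made; scripts were tested on simulated data. The members and lists were chosen with earlier results of these data known. The genes named are the 6 largest differences each way, the 6 brightest, the stalk, 5S, X-linked and paralog groups, 4 reference members (Rpsa, Rps6, Rps19, Rps27a), members with discordant or dim probes, and up to 3 bright genes of each other list (2 genes that the rule names are not reported here); genes with probe pairs, printed windows or positions in other lists were picked after their values were seen.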

Additional observations from a re-analysis of the deposited data

Results flagged for a closer look

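Signal was also present on probes that the family's naming rule leaves out. The gene table names 320 pseudogenes of ribosomal protein genes, from 63 of the 82 members, with 24 for Rpl31 and 23 for Rps12. Probes for pseudogenes numbered 2 on the array, and 2 of these were well above background on both arrays. Rpl34-ps1 read 5.77 in Mob1DKO and 6.01 in WT (-0.24), and Rps15a-ps6 read -2.33 and -1.93 (-0.40). The brightest probes of their parents gave -0.15 (Rpl34) and -0.46 (Rps15a). The 2 Rps15a probes well above background on both arrays differed in size (-0.46 and -0.13). The Rps15a-ps6 probe is dim, where the SD of a single-spot difference was 0.36. Whether these probes read pseudogene RNA or the parent mRNA was not tested.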

How the results depend on the processing

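With 1 array per group no replicate could be left out and depth was not at issue; 58.6% and 53.1% of probes were well above background. The member median (-0.16) was 0.75 with no scaling (all named genes, 0.93), -0.0664 with quantile normalization and with the deposited value table, -0.0397 with loess on brightness, -0.0457 with loess fitted without member probes and 0.0440 with normexp (offset 50). Minus the median of all genes (-0.18 as reported), it was -0.0913 with quantile and the value table, -0.0705 and -0.0758 with the loess fits and 0.0432 with normexp. Members below 0 (76) numbered 0 with no scaling and 29 with normexp. Members past 2-fold (0) numbered 1 with no scaling and 1 with the dimmest probe per gene. The slope (0.0042) was 0.0305 with quantile and the value table, 0.0315 and 0.0304 with the loess fits, 0.0222 with normexp, 0.0193 with normexp without an offset, and turned to -0.0154 with the mean of probes, -0.0104 with the dimmest probe and -0.0164 with the 5 paralogs left out. The cause of these moves was not tested beyond the offset. Scaling on the median, both filters on background and leaving out flagged spots kept these values within 1 spot SD (0.0886). Against other genes at a mean level of 5 to 10, a comparison added after seeing the data, the member median lay between -0.15 and -0.10 as reported and under each of the 14 alternatives, of which normexp without an offset was also added. These alternatives are not separate checks. A scaling that moves all genes alike cancels in this comparison, so scaling on the median and no scaling had to give the reported value (-0.1452). Both filters on background and leaving out flagged spots left it at -0.1452 too. The deposited value table gave the same value as quantile normalization (-0.1256). Of the 80 members, 22 lay below the all-gene median in each of 14 settings. These are the reported setting and the alternatives other than the one with paralogs left out.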

Other observations

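Motifs of other factors were counted in the same promoter windows, 250 bases before to 50 bases from the start. CCGGAAG, the core bound by ETS-family factors, read on both strands, stood in 26 of 73 member windows (35.6%) and in 8.86% of all windows. AAGATGGC, the core bound by YY1, read on both strands, stood in 7 member windows (9.59%) and in 2.75% of all. CTTTCC, read on the gene's strand within 20 bases of the start, stood in 11 (15.1%) and in 1.95% of all, and it can lie inside a pyrimidine run. Several windows belong to 1 gene (73 windows of 61 genes). A match describes these letters and is no measurement of binding.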
